A study of Mus musculus with 16 samples.

Results

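A set of 10 genes for proteins that decide how RNA is spliced were followed through the differentiation of mouse ES cells into neural embryoid bodies, with and without the TFIID subunit Taf4. The 10 genes, chosen by name from the 27807 in the table, were Ptbp1, Ptbp2, Srrm4, Nova1, Nova2, Elavl2, Elavl3, Elavl4, Esrp1 and Esrp2. Poly-A RNA was sequenced from 16 libraries in 8 groups of 2, WT (Taf4+/+) and KO (Taf4-/-, homozygous for a null allele of Taf4a made by deleting exons) at 4 stages each. ES cells were grown on feeder fibroblasts with LIF, and embryoid bodies were sampled just ahead of the retinoic acid treatment (EB4), 1 day into it (EB5) and later in it (EB8). The 2 libraries of a group came from independent ES lines, so that n = 2 throughout and each spread is that between lines. An embryoid body is a mixture of cells. A lower value can therefore mean fewer cells of a type or less RNA per cell, and these cannot be told apart here.

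Alternative splicing changes as neural cells form, and a small set of RNA-binding proteins is known to drive that change. Ptbp1 represses neuronal exons in dividing cells, and its paralogue Ptbp2 takes its place as neurons form. Srrm4 promotes the inclusion of neuronal microexons, the Nova proteins regulate exons of synaptic transcripts, the neuronal Hu proteins (Elavl2, Elavl3 and Elavl4) act on splicing and on the stability of AU-rich messages, and Esrp1 and Esrp2 maintain the epithelial splicing programme.

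The promoters of 8 of the 10 genes were found in the RefSeq table (build GRCm38.p6), with 16 annotated starts in all. Those of Elavl3, Ptbp2 and Srrm4 are printed because Elavl3 held the letters of a TATA box, Ptbp2 was, with Nova1, the first to differ between the genotypes, and Srrm4 rose from the lowest level. Each runs 5′ to 3′ on the gene's minus strand from 250 bases before the annotated start to 50 after it, and capitals mark the motifs searched.

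Elavl3, chr9:22051974-22052273, minus strand: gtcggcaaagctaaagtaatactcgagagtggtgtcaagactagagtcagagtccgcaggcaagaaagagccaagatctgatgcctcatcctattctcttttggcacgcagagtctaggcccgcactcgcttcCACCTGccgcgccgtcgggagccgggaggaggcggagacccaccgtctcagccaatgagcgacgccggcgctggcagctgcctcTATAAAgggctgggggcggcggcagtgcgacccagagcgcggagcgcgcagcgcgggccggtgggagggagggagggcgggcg
Ptbp2, chr3:119783339-119783638, minus strand: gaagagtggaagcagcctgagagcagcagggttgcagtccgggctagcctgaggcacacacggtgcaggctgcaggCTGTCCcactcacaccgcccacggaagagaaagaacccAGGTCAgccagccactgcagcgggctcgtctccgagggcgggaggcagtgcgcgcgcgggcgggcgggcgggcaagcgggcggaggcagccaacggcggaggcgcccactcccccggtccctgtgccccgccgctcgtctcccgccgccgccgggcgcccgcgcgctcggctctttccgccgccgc
Srrm4, chr5:116591768-116592067, minus strand: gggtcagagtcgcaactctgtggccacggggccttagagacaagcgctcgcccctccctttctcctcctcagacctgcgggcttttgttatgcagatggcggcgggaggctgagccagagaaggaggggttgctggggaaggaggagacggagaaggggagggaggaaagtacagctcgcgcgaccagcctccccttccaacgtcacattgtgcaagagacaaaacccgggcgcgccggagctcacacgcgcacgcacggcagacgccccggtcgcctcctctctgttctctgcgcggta

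A set of 5 hexamers were searched on both strands: TATAAA (the TATA box), TTCAGC and GGACAG (parts of the RE1 element bound by Rest), AGGTCA (the repeat unit of retinoic acid receptor elements) and CACCTG (an E-box of the kind bound by ZEB and basic helix-loop-helix factors). The motifs do not share letters with each other where they were found. TATAAA was present in 13.6% of the 32851 mouse promoters of the same length, TTCAGC in 15.8%, GGACAG in 22.2%, AGGTCA in 16.3% and CACCTG in 20.2%. Elavl3 was the only matched member with TATAAA, at position -33 from the start, and it held CACCTG at -117. Ptbp2 held GGACAG on the opposite strand at -174 and AGGTCA at -136. Nova1 held TTCAGC at 35, the first of the 6 Elavl2 promoters held GGACAG at -209, and 3 of the 4 Elavl4 promoters held TTCAGC, 2 of them with AGGTCA and CACCTG as well. Those 2 Elavl4 windows overlap (chr4:110287478-110287777 and chr4:110287462-110287761). Their AGGTCA and CACCTG matches are the same letters, and they share TTCAGC matches. None of the 5 hexamers lay in the windows of Ptbp1, Srrm4 and Nova2. The 3 printed windows were rich in CG dinucleotides, with 36 in Ptbp2, 29 in Elavl3 and 25 in Srrm4, against a median of 7 over all promoters. These matches are letters in a window and not bound sites.

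The values are read counts per gene, normalised by the authors for library size. The ES libraries held 32631020 to 40711826 reads in genes and those of embryoid bodies 22442118 to 27685306, so that stage and depth cannot be told apart where EB4 is set against ES. Taf4a itself read 1591 to 1960 normalised counts in WT and 1973 to 2400 in KO. A count over the whole gene does not resolve the deleted exons, and the genotype is taken from the labels. Genes of chromosome 8 lay 0.38 to 0.40 (log2) above their mean over all libraries in the 3 WT replicate 1 embryoid body libraries and -0.16 to 0.04 from it in the other 13, which touches Esrp2. The other chromosomes that hold members stayed between -0.12 and 0.12. The X chromosome was 0.37 to 0.56 above its mean in 5 libraries (WT ES replicate 2 and KO replicate 2 at each stage) and -0.27 to -0.16 in the other 11, although no member lies on it. No WT embryoid body library had the raised X level of WT ES replicate 2, and no WT ES library had the chromosome 8 rise. Where WT EB4 is set against ES, stage thus cannot be told apart from a difference between the lines or their chromosomes. All 10 members had a mean of at least 10 normalised counts and were tested, and the lowest single value of a member rested on 10 reads.

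Markers of the labelled states were checked in the libraries. The summed level of 6 pluripotency markers was 91249 to 125574 in WT ES, 113064 to 123399 in KO ES, 908 to 1538 for WT EB8 and 24166 to 27195 for KO EB8. The sum of 8 neuronal markers was 18406 to 22472 for WT EB8 and 1315 to 1888 for KO EB8, and that of 5 neural progenitor markers was 24645 to 27661 and 4818 to 4899. The neuronal sum was 8926 to 9732 in WT ES, 5010 to 5539 at WT EB4 and 2735 to 4079 at WT EB5. In KO it was 10196 to 10585 in ES, 3351 to 5070 at EB4 and 2480 to 3354 at EB5. It was thus higher in ES cells than at EB4 and EB5 in both genotypes. The sum of 7 feeder fibroblast markers was 2104 to 2773 in WT EB8, 877 in KO EB8 replicate 1 and 3137 in KO EB8 replicate 2. In ES cells the fibroblast sum was 1033 to 2650 in WT and 209 to 494 in KO, although 0 of 6 tested markers were called there. That of 8 visceral endoderm markers was 1359 to 1474 in WT EB8 and 619 to 774 in KO EB8. Of the tested markers, 8 of 8 neuronal and 4 of 5 progenitor ones were lower in KO at EB8, 6 of 6 pluripotency ones were higher, 0 of 6 fibroblast ones passed, and 1 of 5 endoderm ones was lower (Sox17). None of these marker lists had a gene at 0 in both libraries of an EB8 group.

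The polypyrimidine tract binding proteins split in the course of differentiation. Ptbp1 lies at chr10:79317172-79327516 on the plus strand of NCBI37. It was high in every library. Its normalised counts in WT were 24126 and 16045 in ES, 22040 and 18862 at EB4, 18068 and 20406 at EB5 and 14270 and 13988 at EB8. The KO values were 22521 and 23516, then 20805 and 19223, then 16844 and 15516, and at EB8 13465 and 14078. All 4 EB8 libraries lay below the other 12, and the genotypes overlapped at ES, EB4 and EB8. A further 3 annotated genes on the opposite strand overlap its exons, by 85, 251 and 437 bases, and the library kit does not keep strand.

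Ptbp2 (chr3:119421660-119486306, minus strand) followed another course. In WT it read 1853 and 1402 in ES, 3863 and 3881 at EB4, 3740 and 5463 at EB5 and 7759 and 7840 at EB8. In KO it read 1609 and 1219, then 1761 and 1653, then 1923 and 1599, and finally 958 and 1316. The WT libraries were higher at EB4 than in ES and highest at EB8, whereas the KO libraries at EB8 overlapped those in ES, and the genotypes did not overlap at any embryoid body stage. Per kilobase of exon, there were 10.8 and 12.3 units of Ptbp2 for 100 of Ptbp1 in the WT ES libraries, 24.7 and 29.0 at EB4, 29.2 and 37.8 at EB5 and 76.7 and 79.1 at EB8. In KO the same ratio was 10.1 and 7.31, then 11.9 and 12.1, then 16.1 and 14.5, and at EB8 10.0 and 13.2. The ratio was thus highest in WT EB8, and in KO EB8 it was within the range of 7.31 to 12.3 seen in ES cells, except for KO EB8 replicate 2 just above it.

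**Figure D1:**
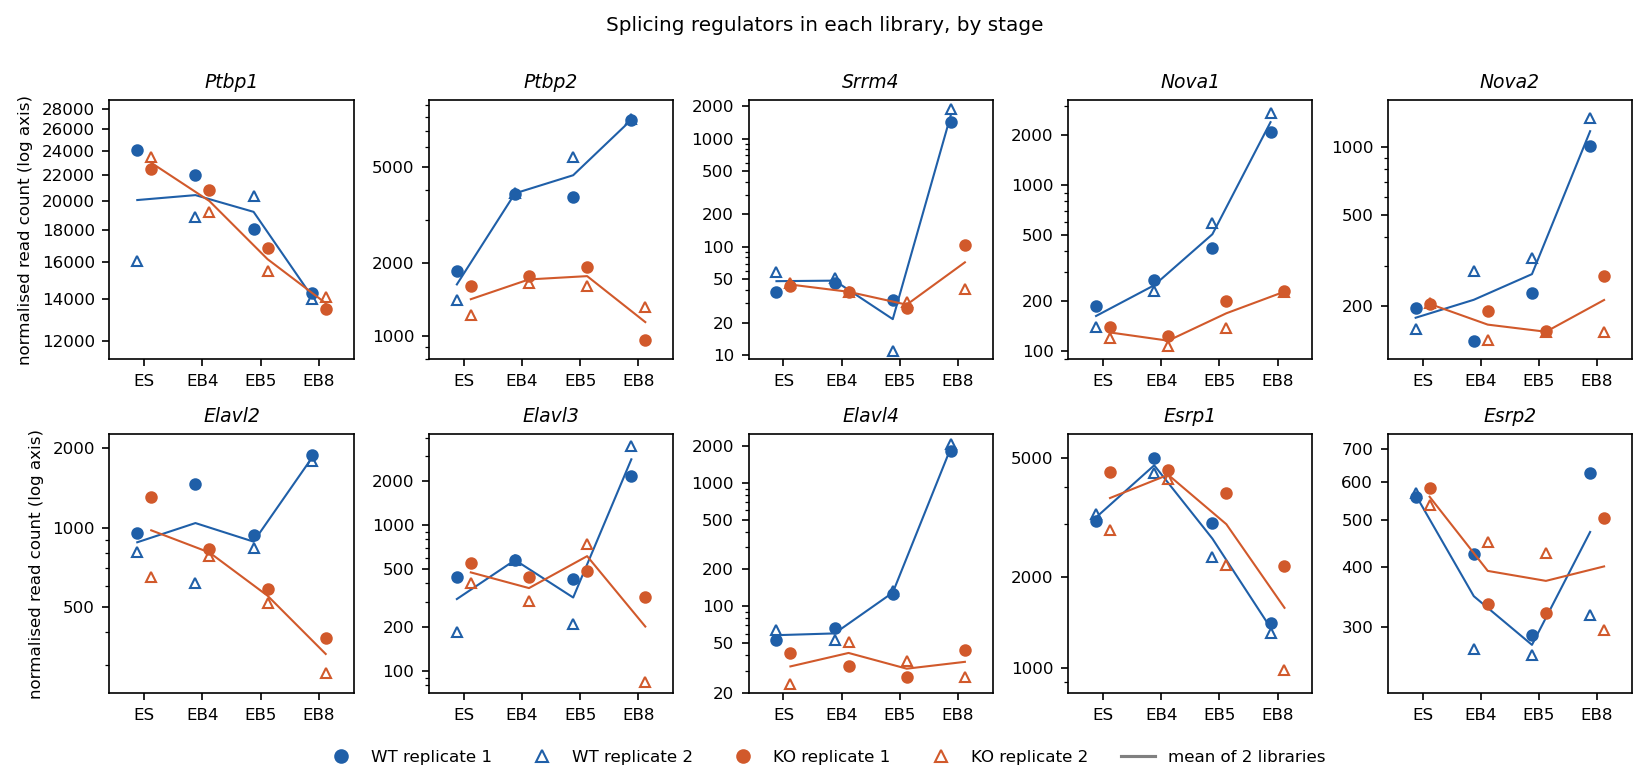
Normalised read count (log axis) of each splicing regulator by stage, for WT (blue) and KO (orange), with replicate 1 as filled circles, replicate 2 as open triangles and lines through the means of 2 libraries. Ptbp2, Srrm4, both Nova genes and the 3 neuronal Hu genes separate the genotypes at EB8, where Ptbp2 reads 7759 and 7840 in WT against 958 and 1316 in KO, whereas Ptbp1 and Esrp1 go down in both genotypes.

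Srrm4 (chr5:116889281-117041826, minus strand), the microexon regulator, was low until the last stage. Its WT values were 38.2 and 58.2 in ES, 46.0 and 51.5 at EB4, 32.0 and 11.0 at EB5 and 1437 and 1889 at EB8. Its KO values were 43.2 and 46.5, then 38.6 and 38.3, then 27.5 and 31.0, and at EB8 103 and 40.5. The mean of WT EB8 was 77.4 times that of WT EB5. The 14 libraries outside WT EB8 lay between 11.0 and 103.

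The Nova genes encode KH-domain proteins first known as targets of antibodies in a paraneoplastic neurological syndrome. Nova1 (chr12:47795504-47919762, minus strand) read 187 and 139 in WT ES, 270 and 228 at EB4, 417 and 593 at EB5 and 2073 and 2701 at EB8. In KO it read 140 and 119, then 124 and 107, then 200 and 138, and at EB8 230 and 226. Nova1 was thus higher at each later WT stage with no overlap between successive stages, and the KO EB8 libraries resembled WT EB4 in level.

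Nova2 (chr7:19510698-19551031, plus strand) read 196 and 158 in WT ES, 139 and 285 at EB4, 227 and 324 at EB5 and 1008 and 1345 at EB8. Its KO values were 203 and 204, then 189 and 140, then 155 and 152, and at EB8 271 and 152. The genotypes overlapped at EB4, and KO lay below WT at EB5 and EB8 and above it in ES. Only the difference at EB8 was called in the tests given below. Nova2 supplied 27.4% and 27.9% of the Nova level per kilobase in WT EB8, against 47.8% and 34.4% in KO EB8. An antisense non-coding gene that overlaps 2652 bases of Nova2 exons cannot be separated from it without strand.

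Among the neuronal Hu genes, Elavl2 (chr4:90917454-91066675, minus strand) was already present in ES cells. Its WT values were 951 and 806 in ES, 1468 and 612 at EB4, 934 and 834 at EB5 and 1887 and 1790 at EB8. Its KO values were 1303 and 648, then 826 and 781, then 585 and 515, and finally 380 and 280. The KO libraries at EB5 and EB8 were the lowest of all 16.

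Elavl3 (chr9:21819449-21856467, minus strand) was present at every stage. It read 440 and 184 in WT ES, 574 and 581 at EB4, 428 and 211 at EB5 and 2164 and 3514 at EB8. In KO it read 550 and 401, then 439 and 302, then 488 and 741, and at EB8 320 and 84.2. KO lay below WT at EB4 and EB8 and above it at EB5, with no overlap at these stages. Of these differences in Elavl3, only that at EB8 was called in the tests given below.

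Elavl4 (chr4:109876327-110024514, minus strand) was low until EB5. Its WT values were 52.8 and 63.8 in ES, 66.9 and 53.6 at EB4, 125 and 133 at EB5 and 1797 and 2063 at EB8. Its KO values were 41.5 and 23.6, then 32.7 and 51.0, then 26.5 and 35.9, and at EB8 44.3 and 26.6. Every KO library was below every WT library at each stage, and no KO library reached the lowest WT value of 52.8.

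Summed per kilobase of exon, the 3 neuronal Hu genes reached 1110 and 1410 in WT EB8 and lay between 73.0 and 396 in the other 14 libraries, with the lowest values of 141 and 73.0 in KO EB8. In WT ES, Elavl2 made up 64.2% and 75.3% of that sum and Elavl4 3.61% and 6.04%. In WT EB8, the share of Elavl2 was 31.2% and 23.3% and that of Elavl4 30.1% and 27.2%, whereas Elavl4 held 5.82% and 6.77% in KO EB8. Relative to 100 units of Elavl1, the Hu gene expressed in most tissues, the sum amounted to 111 and 175 in WT EB8, against 23.5 and 10.4 in KO EB8.

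**Figure D2:**
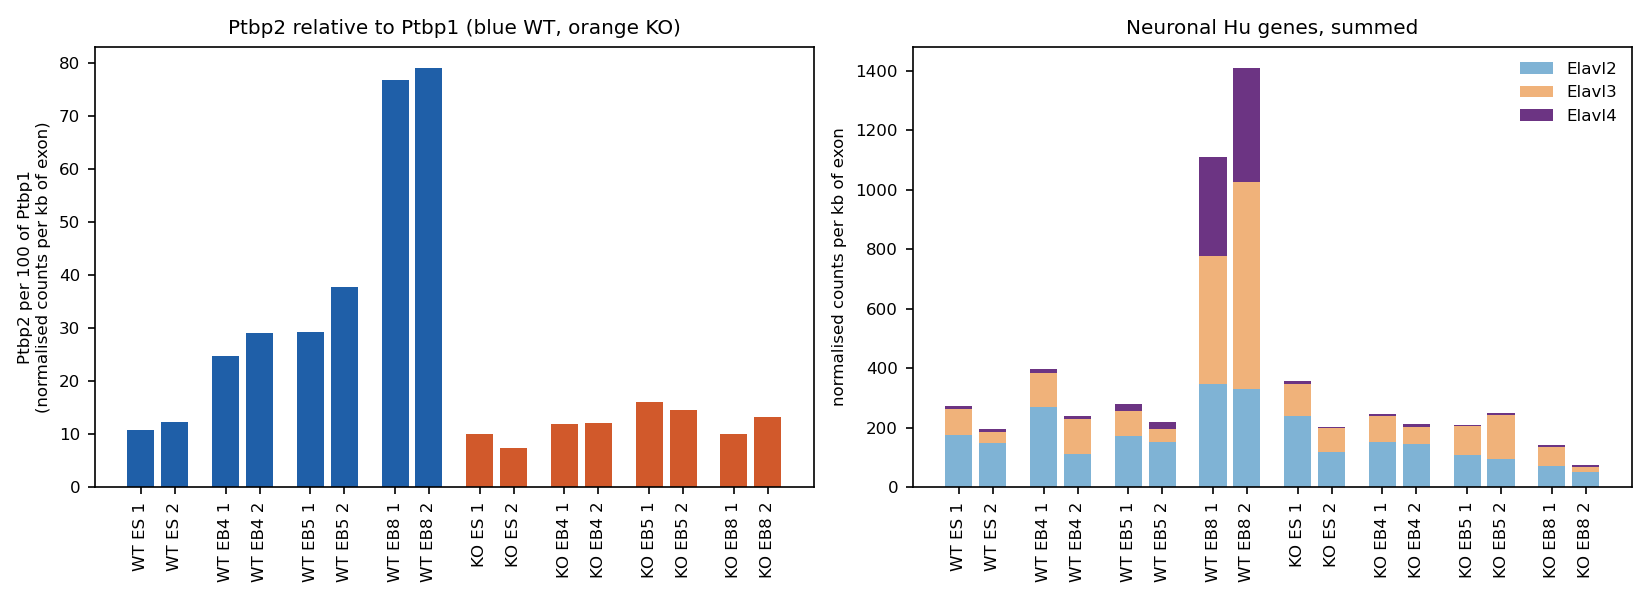
Left, Ptbp2 per 100 of Ptbp1 in each library, and right, the stacked levels of Elavl2, Elavl3 and Elavl4, both in normalised counts per kilobase of exon. The WT EB8 bars stand at 76.7 and 79.1 on the left and at 1110 and 1410 on the right, and the KO bars stay at or below 16.1 on the left and at or below 356 on the right.

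The epithelial regulators behaved differently. Esrp1 (chr4:11259080-11313930, minus strand) read 3084 and 3247 in WT ES, 4985 and 4450 at EB4, 3039 and 2343 at EB5 and 1410 and 1309 at EB8. Its KO values were 4474 and 2869, then 4541 and 4232, then 3817 and 2193, and at EB8 2181 and 986. Esrp1 was highest at EB4 on average and lowest at EB8 in both genotypes, and the KO EB8 libraries lay on either side of the WT ones.

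Esrp2 (chr8:108654219-108660874, minus strand) was less abundant. It read 559 and 568 in WT ES, 425 and 270 at EB4, 289 and 263 at EB5 and 627 and 318 at EB8. Its KO values were 581 and 536, then 335 and 449, then 321 and 428, and at EB8 505 and 296. The genotypes overlapped at ES, EB4 and EB8. The higher WT libraries at EB4 and EB8 were the ones with the raised chromosome 8 level, whose part in these values was not tested. A pair of opposite-strand genes overlap its exons by 219 and 119 bases. Per kilobase, Esrp1 exceeded Esrp2 in every library, by 1.55 and 2.84 times in WT EB8, by 2.97 and 2.29 times in KO EB8, against 8.07 and 11.3 times in WT EB4.

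The order of the levels per kilobase of exon changed with stage in WT. In WT ES, Ptbp1 led at 4230.3 ± 1203 (SD, n = 2), followed by Esrp1 at 502 ± 18.4 and Ptbp2 at 484 ± 94.9, which did not differ beyond their spread with this length. Elavl2 (161 ± 18.8) and Esrp2 (130 ± 1.4) came next, and Elavl4 (10.8 ± 1.4) and Srrm4 (6.1 ± 1.8) were last. In WT EB8 the order was Ptbp1 (2976 ± 42.1), Ptbp2 (2319 ± 17.0), Elavl3 (565 ± 190), Elavl4 (358 ± 34.9), Nova1 (341 ± 63.4), Elavl2 (337 ± 12.5), Esrp1 (216 ± 11.4), Srrm4 (211 ± 40.5), Nova2 (131 ± 26.4) and Esrp2 (109 ± 50.4). The neighbours from Elavl4 to Elavl2, Esrp1 and Srrm4, and Nova2 and Esrp2 did not differ beyond their spread. In KO EB8, Ptbp1 (2900.5 ± 91.4) was followed by Ptbp2 (338 ± 75.2), Esrp1 (251 ± 134) and Esrp2 (92.3 ± 34.1), and Srrm4 (9.1 ± 5.6) and Elavl4 (6.6 ± 2.3) were last. In KO EB8, Ptbp2 and Esrp1 did not differ beyond their spread, nor did Srrm4 and Elavl4. The same held for Esrp2 and Elavl2 (60.5 ± 12.9), the next in order. The order among close members depended on the length used. With that of the longest annotated transcript, Esrp1 in WT ES stood at 819 per kilobase and Ptbp2 at 484, and in WT EB8 Elavl4 (465), Elavl2 (439), Esrp1 (352) and Nova1 (341) followed Elavl3, while Esrp2 and Nova2 lay at 134 and 133. In KO EB8 that length placed Esrp1 (410) above Ptbp2 (338).

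The genotypes were then compared within each stage to find out when the members came to differ. The changes are on the scale of log2(normalised count + 1), were tested with limma over 16124 genes, and are called at a Benjamini-Hochberg adjusted p under 0.05. In ES cells 0 of the 10 members were called, as were 0 of all genes, while 1846 genes had an unadjusted p under 0.05. On the recovered reads edgeR called 0 genes and DESeq2 469.

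At EB4, before retinoic acid, 2 of the 10 members were lower in KO, against 3.37% of all genes tested. Ptbp2 fell by 1.18 ± 0.22 (log2, SE; limma adjusted p = 0.0146) and stood at 44.1% of the WT mean. Nova1 changed by -1.10 ± 0.28 (limma adjusted p = 0.0430) and stood at 46.4%. Elavl3, Elavl4 and Srrm4 had both KO libraries below both WT libraries as well, without passing the test. That arrangement was found in 5 of the 10 members and in 26.6% of all genes. The call of Nova1 was lost without any 1 library of that stage. That of Ptbp2 was lost without WT EB4 replicate 1, WT EB4 replicate 2 or KO EB4 replicate 2. Each of these fits also called fewer of all genes than the main fit. Over 17 settings the change ran from -1.228 to -1.137 for Ptbp2 and from -1.219 to -0.963 for Nova1.

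At EB5, 3 of the 10 members were lower in KO, against 2.17% of all genes. Ptbp2 fell by 1.37 ± 0.22 (limma adjusted p = 0.0128), Nova1 fell by 1.58 ± 0.28 (limma adjusted p = 0.0141) and Elavl4 fell by 2.03 ± 0.40 (limma adjusted p = 0.0208). The KO means were 38.3%, 33.4% and 24.2% of the WT means. All these calls were lost without WT EB5 replicate 2 or KO EB5 replicate 2, and not all stood without either of the other libraries of that stage. Each of these fits also called fewer of all genes than the main fit. Over 17 settings the change ran from -1.639 to -1.092 for Ptbp2, from -1.845 to -1.309 for Nova1 and from -2.238 to -1.817 for Elavl4.

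At EB8, 7 of the 10 members were lower in KO and 0 higher, against 12.5% of all genes lower and 10.4% higher. Elavl4 fell by 5.77 ± 0.40 (limma adjusted p = 9.86e-06), Srrm4 fell by 4.65 ± 0.52 (limma adjusted p = 0.000144) and Elavl3 fell by 4.06 ± 0.58 (limma adjusted p = 0.000565). Their KO means were 1.84%, 4.33% and 7.11% of the WT means. Nova1 fell by 3.37 ± 0.28 (limma adjusted p = 2.59e-05) to 9.55%, and Ptbp2 fell by 2.80 ± 0.22 (limma adjusted p = 1.92e-05) to 14.6%. Nova2 fell by 2.51 ± 0.38 (limma adjusted p = 0.000720) to 18.0% and Elavl2 fell by 2.49 ± 0.37 (limma adjusted p = 0.000717) to 17.9%. Both KO libraries were below both WT libraries for these 7 genes and for 33.5% of all genes. All 7 calls stood in each of the alternative fits, which included edgeR, DESeq2 and the loss of any 1 library. The sums of neuronal, progenitor and pluripotency markers given above moved with the same groups, and their part in the changes was not tested.

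The other 3 members were not called at EB8. Ptbp1 differed by -0.04 (95% interval -0.41 to 0.34, limma adjusted p = 0.905), Esrp1 by 0.11 (-0.63 to 0.85, limma adjusted p = 0.850) and Esrp2 by -0.21 (-0.98 to 0.57, limma adjusted p = 0.720). The interval for Ptbp1 was the narrowest of all 10 members. The sign for Ptbp1 turned under upper-quartile rescaling and quantile normalisation, and those for Esrp1 and Esrp2 turned when single libraries were left out (Esrp1 to -0.46 without KO EB8 replicate 1, and Esrp2 to 0.28 without WT EB8 replicate 1 and 0.18 without KO EB8 replicate 2).

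**Figure D3:**
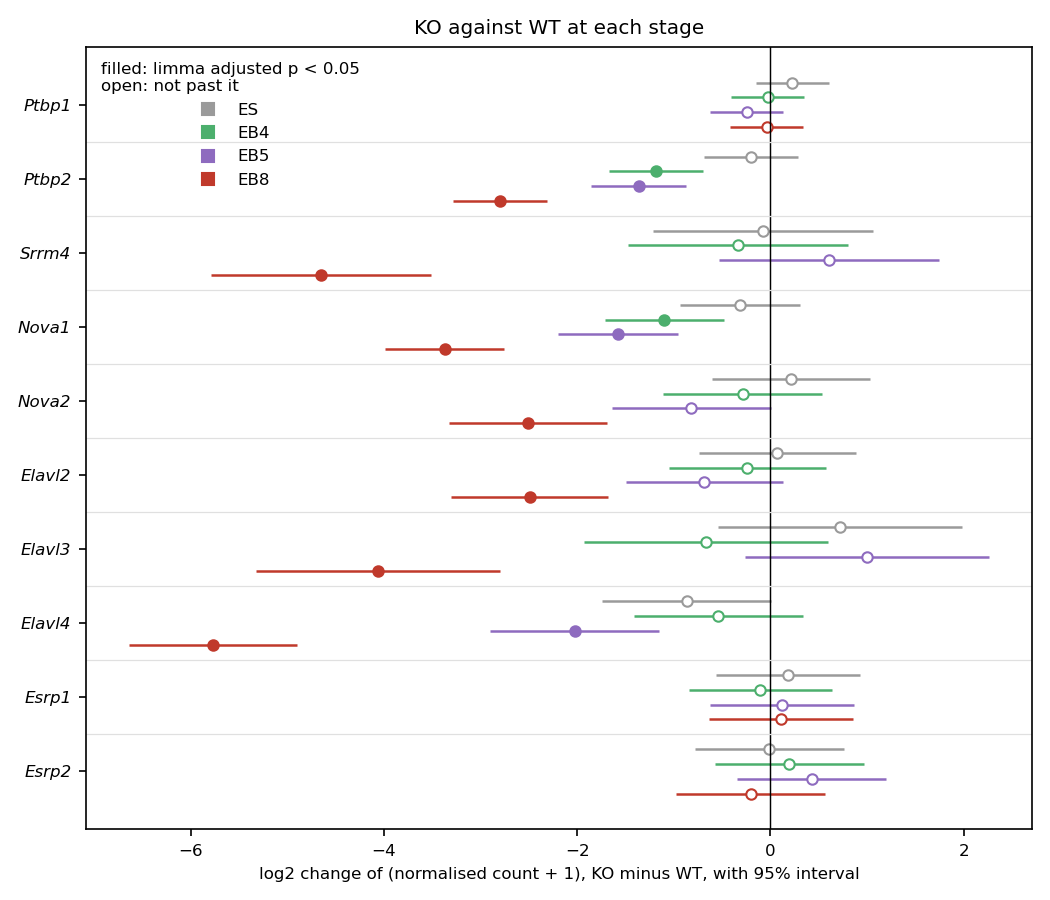
Log2 change of (normalised count + 1), KO minus WT, for each regulator at ES (grey), EB4 (green), EB5 (purple) and EB8 (red), as points with 95% intervals from limma, filled where the adjusted p was under 0.05. No point is filled at ES, 2 are at EB4, 3 at EB5 and 7 at EB8, where Elavl4 lies farthest from 0 at -5.77.

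The change of each member was also followed within a genotype. From ES to EB4, 1 of 10 members rose in WT, against 8.98% of all genes, namely Ptbp2 with 1.26 ± 0.22 (limma adjusted p = 0.00420), and no member passed in KO, where 3.50% of all genes did. The rise in WT cannot be told apart from the differences in depth and chromosome levels given above. From EB4 to EB8 in WT, 6 members rose, against 15.0% of all genes, and 2 fell, against 12.2%. Srrm4 rose by 5.05 ± 0.52 (limma adjusted p = 3.19e-05), Elavl4 by 4.98 ± 0.40 (5.70e-06) and Nova1 by 3.25 ± 0.28 (1.02e-05). Their WT EB8 means were 34.1, 32.0 and 9.59 times the EB4 means. Nova2 rose by 2.54 ± 0.38 (limma adjusted p = 0.000419), Elavl3 by 2.25 ± 0.58 (0.0127) and Ptbp2 by 1.01 ± 0.22 (0.00557). Elavl2, whose 2 EB4 libraries were far apart at 1468 and 612, did not pass. It did pass with a replicate block (limma adjusted p = 0.0277, same change of 0.95) and without WT EB4 replicate 1 (1.58, limma adjusted p = 0.0107). Esrp1 fell by 1.79 ± 0.34 (limma adjusted p = 0.00217) and Ptbp1 fell by 0.53 ± 0.17 (0.0394). The call of Elavl3 was lost without WT EB4 replicate 1 or WT EB8 replicate 2, and that of Ptbp1 without WT EB4 replicate 1, WT EB8 replicate 1 or WT EB8 replicate 2.

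In KO, 1 member rose from EB4 to EB8, against 9.86% of all genes, and 3 fell, against 8.67%. Nova1 rose by 0.98 ± 0.28 (limma adjusted p = 0.0320). Elavl2 fell by 1.30 ± 0.37 (limma adjusted p = 0.0309), Esrp1 fell by 1.58 ± 0.34 (0.00853) and Ptbp1 fell by 0.54 ± 0.17 (0.0486). Esrp1 and Ptbp1 were thus called lower in both genotypes, and Elavl2 was lower in KO while its WT values at EB8 exceeded both at EB4. Under quantile normalisation the change of Ptbp1 was -0.28 in WT and -0.09 in KO and neither passed (limma adjusted p = 0.180 and 0.716). The KO call of Ptbp1 stood in 7 of 17 settings and the WT call in 11. The KO calls were unstable, since 0 of the 4 stood without KO EB8 replicate 2, 1 without either KO EB4 library and 2 without KO EB8 replicate 1. Each fit without 1 of these libraries also called fewer of all genes than the main fit. The KO EB8 replicate 2 library had the lowest Esrp1 of all 16 and the highest sum of fibroblast markers, and the part of such cells in its values was not tested.

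**Figure D4:**
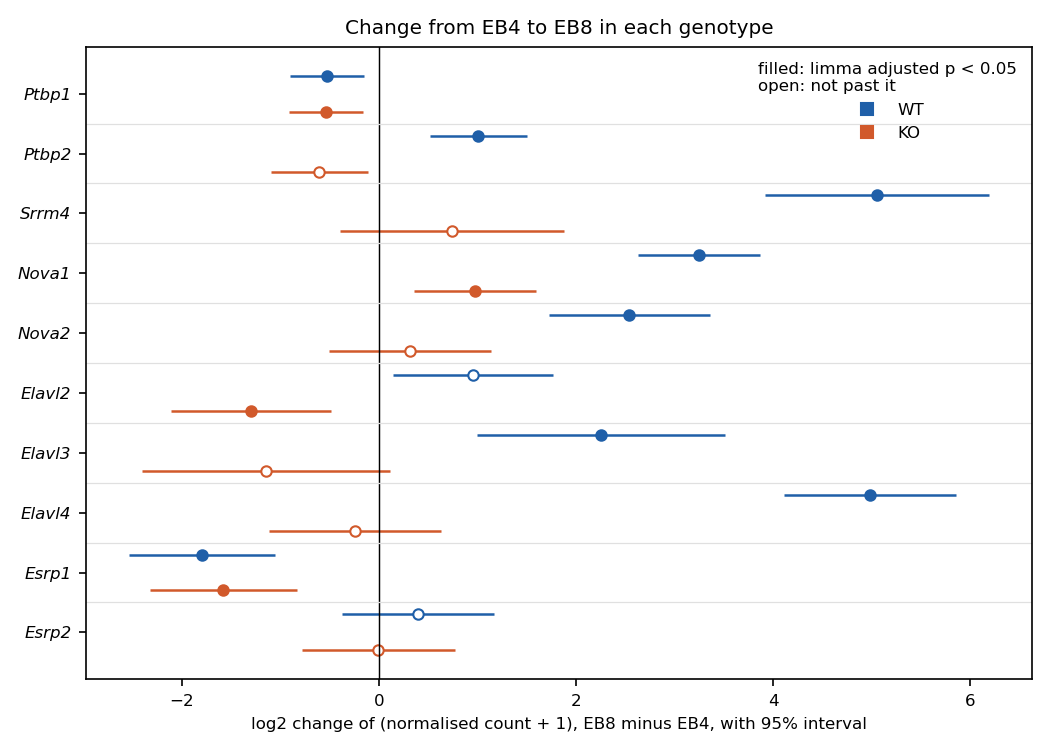
Log2 change of (normalised count + 1) from EB4 to EB8 in WT (blue) and KO (orange) for each regulator, as points with 95% intervals from limma, filled where the adjusted p was under 0.05. Srrm4 and Elavl4 rise by 5.05 and 4.98 in WT with KO intervals that span 0, and the WT and KO points of Ptbp1 lie next to each other at -0.53 and -0.54.

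The difference between the genotypes in the EB4 to EB8 change was tested as an interaction. It was negative, a smaller rise or a fall in KO, for 7 of 10 members, against 1.71% of all genes. It amounted to -5.23 ± 0.57 for Elavl4 (limma adjusted p = 0.00289), -4.31 ± 0.74 for Srrm4 (0.0112), -3.40 ± 0.82 for Elavl3 (0.0481) and -2.27 ± 0.40 for Nova1 (0.0129). It was -2.25 ± 0.53 for Elavl2 (limma adjusted p = 0.0422), -2.22 ± 0.53 for Nova2 (0.0466) and -1.61 ± 0.32 for Ptbp2 (0.0214). Elavl2, Elavl3 and Nova2 stood close to the threshold. The number of calls was 1 without WT EB8 replicate 2 (Elavl4), 3 without WT EB8 replicate 1, KO EB4 replicate 1 or KO EB4 replicate 2, 4 without WT EB4 replicate 1, WT EB4 replicate 2 or KO EB8 replicate 2, and 5 without KO EB8 replicate 1. Each of these fits also called fewer of all genes than the main fit. Ptbp1, Esrp1 and Esrp2 were not called in the interaction test.

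Other genes of the splicing machinery give the setting. Of 25 other splicing regulators, widely expressed ones such as Elavl1 included and all tested, 14 were lower and 2 higher in KO at EB8. Of all genes, 12.5% were lower and 10.4% higher, and the median log2 change was -0.51 in the list against -0.03 over all genes. Rbfox3 and Msi1 of this list are also among the neuronal and progenitor markers summed above. Celf3, a neuronal CELF family protein, read 802 and 1209 in WT EB8, against 36.9 and 10.7 in KO EB8 (log2 change -5.55, limma adjusted p = 0.000139). Rbfox3, the antigen of the neuronal marker NeuN, read 238 and 235 against 14.8 and 1.1 (-5.38, limma adjusted p = 0.00106), and Rbfox1 read 92.4 and 150 against 6.3 and 3.2 (-4.42, limma adjusted p = 0.00376). Of the widely expressed SR proteins and hnRNPs, 4 of 22 were lower and 0 higher at EB8, against 12.5% and 10.4% of all genes, with a median of -0.39. The largest of these changes was in Hnrnpa1, at 16341 and 19008 in WT and 7040 and 7074 in KO (-1.32, limma adjusted p = 0.000145), followed by Hnrnph2 (-0.75) and Hnrnpd (-0.67).

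The paralogues outside the neural set moved less. Ptbp3, which represses exons mainly in blood cells and is listed under the older symbol Rod1, read 4566 and 4317 in WT EB8, against 7048 and 6149 in KO EB8 (0.57, limma adjusted p = 0.0420). Elavl1 read 6031 and 4871 against 3635 and 4217 (-0.47, limma adjusted p = 0.0401). Dlg4, whose splicing is known to be repressed by Ptbp1 and Ptbp2, read 963 and 1510 against 437 and 271 (-1.81, limma adjusted p = 0.00662). A gene count does not show which exons were included.

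Rest, the repressor that silences many neuronal genes outside neurons, fell by 1.54 in WT (limma adjusted p = 3.87e-05) and fell by 1.37 in KO (0.000241) from EB4 to EB8. In the main fit it was higher in KO at EB4 (0.68, limma adjusted p = 0.0340), EB5 (0.63, 0.0497) and EB8 (0.85, 0.00329), where it read 4444 and 4135 against 2338 and 2428 in WT. The EB5 call of Rest stood at the threshold. With only the compared groups in the fit, 0 of all genes were called at EB4. The change of Rest was not followed through the other settings. Of the 7 genes of the Rest corepressor complex tested, Rest included, 2 were higher (Rest and Hdac1, 0.76) and 2 lower at EB8, namely Rcor2 (-1.61) and Hdac2 (-1.03), where 10.4% of all genes were higher and 12.5% lower.

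Among 12 epithelial genes 1 was higher at EB8, no more than the 10.4% of all genes, namely Cldn4, a tight junction claudin, which read 11495 and 6971 in KO and 4070 and 3784 in WT (1.19, limma adjusted p = 0.0209). Of 6 genes of the ZEB, SNAIL and TWIST factors, Zeb2 was called lower (12.5% of all genes were), at 391 and 461 in KO against 3182 and 3738 in WT (-3.02, limma adjusted p = 0.00174). From EB4 to EB8, 6 of the 12 epithelial genes were lower and 0 higher in WT, where 12.2% of all genes were lower, and 3 of 12 were lower in KO, where 8.67% were.

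The tested genes whose centred log2 profile over the 16 libraries was closest to that of a member, by root mean square difference, were Plch1 (0.28) and Marcks (0.34) for Ptbp2, Celsr2 (0.27) and Sorbs2 (0.34) for Nova1, Hipk2 (0.36) and Slc39a6 (0.41) for Nova2, and Igsf9 (0.32) and Bzw2 (0.36) for Elavl2. They were Lrrn3 (0.71) and RP23-71K9.1 (0.74) for Srrm4, Gpr56 (0.61) and BC021891 (0.64) for Elavl3, and Pax5 (0.60) and Gm5607 (0.62) for Elavl4. Ptbp1 was closest to Xpo7 (0.10) and Cct5 (0.10), Esrp1 to Syngr3 (0.31) and Epcam (0.32), and Esrp2 to Oxnad1 (0.26) and Ppp1r10 (0.28). Within the set, the smallest distance was 0.48, between Ptbp1 and Esrp2, whose own profiles varied little (SD 0.28 and 0.43). Esrp2 ranked only 5849 among the tested genes by distance from Ptbp1. Nova1 and Nova2 stood at 0.62, where Nova2 ranked 74 by distance from Nova1. Srrm4 and Esrp1 were the farthest apart at 2.31. These distances share libraries and depth and are a description.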

How the data were processed

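Poly-A RNA of 16 libraries (8 groups of 2 from independent lines) was sequenced as single-end reads. The authors aligned them with TopHat to mm9 (NCBI37). The submitters' processing notes name TopHat2 2.0.10, HTSeq 0.5.4p3, DESeq2 1.0.19 and CASAVA 1.7 and 1.8. The annotation release and strand setting are not given in the sources used here. Each deposited value is a normalised signal, namely the reads of a gene over the size factor of its library. Division by a step found for each library turned 100.0% of the values into whole reads (tolerance 0.01).

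Positions and exon lengths (the union of exons) came from GENCODE M1 on NCBI37, which held 27603 of the 27807 identifiers and not the other 204. Promoters came from RefSeq on GRCm38.p6, and no coordinates were converted between builds. Ptbp3 and Map2 are listed in the deposited table under older symbols and were matched through RefSeq synonyms.

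The main test was limma 3.58.1 (R 4.3.3) on log2(value + 1), with a mean per group, all libraries in the fit, a trend with expression, 8 residual and 4.28 prior degrees of freedom, and Benjamini-Hochberg adjustment over the 16124 genes with a mean of at least 10. DESeq2 and edgeR on recovered reads were alternatives. The low expression scale understates folds. The paper names 2 lines per genotype, and the residual pools the spread between the 2 libraries of each of the 8 groups. The main fit has no term for line and so ignores that lines may recur across stages. Its residual degrees of freedom are then not all independent. The main limma fit was tested on simulated data for KO against WT at EB8 alone. The simulated libraries were independent, so the simulation cannot address lines that recur across stages, nor the other comparisons and fits. The members and lists were chosen with earlier results of these data known. The text names all members, Rest, Dlg4, Ptbp3, Elavl1, the called genes of each splicing, Rest or epithelial list with the largest change at EB8, and the 2 closest profiles per member. Other tools were edgeR 4.0.16, DESeq2 1.42.0 and Python 3.11.15. The other settings were pseudocounts (0.1, 5), the filter (none, or a mean of 50), the scaling (by upper quartile or quantiles), a fit of the compared groups alone, replicate blocks and the loss of each library.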

Additional observations from a re-analysis of the deposited data

Results flagged for a closer look

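The change from EB4 to EB8 differed between the genotypes for 7 members by the interaction term in limma. On the log2 scale, KO minus WT, the difference was -5.23 for Elavl4, -4.31 for Srrm4, -3.40 for Elavl3, -2.27 for Nova1, -2.25 for Elavl2, -2.22 for Nova2 and -1.61 for Ptbp2. Over 21 settings the limma adjusted p (or that of edgeR or DESeq2) passed in 21 for Elavl4, in 20 each for Srrm4 and Nova1, in 14 for Ptbp2, in 10 each for Elavl2 and Nova2 and in 8 for Elavl3. The group size of 2 allows no check of a single library against the others of its group.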

How the results depend on the processing

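The 7 calls at EB8 between genotypes stood in all 17 settings. Smaller counts elsewhere depended on the fit. With only the compared groups in the fit, the number of members called was 0 at EB4 (main 2), 0 at EB5 (3), 0 for EB4 against ES in WT (1), 1 for EB8 against EB4 in KO (4) and 4 for the interaction (7). Over all 16124 genes, that fit called 0 at EB4 (main 986), 72 at EB5 (700) and 0 for EB4 against ES in WT (2668). It called 1689 for EB8 against EB4 in KO (2988) and 218 for the interaction (444). Without a filter the number of members was 1 at EB4 and 4 for the interaction, under quantile normalisation 1 at EB4 and 2 for EB8 against EB4 in KO, and 4 for the interaction under upper-quartile rescaling and with edgeR. Without a filter, 609 and 405 of 27807 genes were called. Over all 16124 genes, quantile normalisation called 762 and 2637. For the interaction, edgeR called 364 of them and upper-quartile rescaling 451, more than the 444 of the main fit. Leaving out 1 library gave 0 to 1 calls at EB4, 0 to 2 at EB5, 0 to 2 for EB8 against EB4 in KO, 6 to 8 for that change in WT and 1 to 5 for the interaction. In these comparisons, each fit with 1 library left out also called fewer of all genes than the main fit. At EB8 the log2 change of Ptbp1 was 0.105 under upper-quartile rescaling and 0.128 under quantile normalisation, the first of which moved the median of all genes to 0.11. With 1 library left out, that of Esrp2 ran from -0.695 to 0.284 (0.284 without WT EB8 replicate 1 and 0.179 without KO EB8 replicate 2) and that of Esrp1 from -0.461 (without KO EB8 replicate 1) to 0.682. With the longest transcript as the length, WT EB8 levels per kilobase were 4460 for Ptbp1, 439 for Elavl2, 465 for Elavl4 and 352 for Esrp1. The cause was not tested.

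The replicate numbers recur in each group, but the deviations of same-numbered KO and WT libraries correlated at 0.33 in ES and at -0.06, -0.21 and -0.13 at EB4, EB5 and EB8 (across genes, which are not independent replicates), so the numbers were not taken to pair the genotypes. Within a genotype, same-numbered libraries correlated between stages at 0.52 to 0.61 among the WT embryoid bodies and at 0.23 to 0.42 in KO, but at -0.18 to -0.05 between WT ES and the later WT stages, so that WT ES numbers may not name the same lines as later ones. The raised X level of WT ES replicate 2 and the chromosome 8 rise were also not shared between WT ES and the later WT libraries. A replicate block gave 7 members at EB8, 9 for EB8 against EB4 in WT and 7 for the interaction, and 6 for the interaction with the KO numbers exchanged, an alternative chosen after seeing the data, as was a block within each genotype, which gave 9 and 7. Over all 16124 genes the replicate block called 4081, 4709 and 576, against 3697, 4392 and 444 in the main fit. The exchanged block called 539 for the interaction, and the block within each genotype called 5429 and 797. Of 55 member changes not called, 26 changed sign under some alternative and 2 passed under at least 1. Depth limits the precision of the lowest values, such as the 11.0 normalised counts of Srrm4 in WT EB5 replicate 2.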
